A study of Homo sapiens with 2 samples.

Results

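The matrix metalloproteinases (MMP), the ADAM and ADAMTS metalloproteinases, the ADAMTS-like proteins and the tissue inhibitors of metalloproteinases (TIMP) were examined in ALDH+ and ALDH- cells of RMG1, an established clear cell ovarian adenocarcinoma line. Members were all gene probes on the array whose gene name begins with MMP, ADAM or TIMP followed by a number or by TS, and MMP-like names without a number were left out. The rule gave 74 genes with 104 probes, of 27267 gene names with 34127 probes on the whole array. RMG1 cells, grown in DMEM/F12 medium with fetal bovine serum, were sorted by the ALDEFLUOR assay, in which cells with aldehyde dehydrogenase activity retain a fluorescent product. Cells positive in the assay are called ALDH+ cells, which the sample labels describe as stem-like, and cells negative in it are called ALDH- cells. The series held 2 two-color arrays, each hybridized with RNA of both populations. On the first array ALDH+ cells carried the red dye Cy5 and ALDH- cells the green dye Cy3, and on the second array the dyes were exchanged. Since the same RNA extracts were used for both, there was 1 sample of each population from 1 cell line. No test was therefore run, and differences between the arrays reflect technical error alone. RMG1 is the line named in the sample labels, but the methods say that the RNA came from AMOC2.

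MMPs are zinc-dependent proteases that cut collagens, laminin, fibronectin and proteoglycans of the extracellular matrix, and most are made as inactive precursors that another protease must activate. ADAMs are mostly anchored in the membrane and release growth factors, cytokines and adhesion molecules from the cell surface, while ADAMTS proteases are secreted and bind the matrix. TIMPs block the active site of these enzymes, and the balance between protease and inhibitor sets how much matrix is cut, also when carcinoma cells invade.

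Probes on this array are 60 bases long, and the first 30 bases of 6 of them are shown. The ratios of MMP10, ADAMTS9, ADAMTS13 and TIMP2, the largest in size among the members, each rest on a single sequence. MMP3 and MMP7 are shown as MMPs that lie near MMP10 on chromosome 11. No part of the sequences is marked with capitals. They are given 5′ to 3′ with the position of the whole probe in the hg19 build that the array design names.
MMP10 (chr11:102641405-102641464, minus strand): atgtattatgagccaaaatggttaattttt
MMP3 (chr11:102706694-102706753, minus strand): tgactcgagtcacactcaagggaacttgag
MMP7 (chr11:102394029-102394088, minus strand): ttgggtatgggacattcctctgatcctaat
ADAMTS9 (chr3:64501589-64501648, minus strand): gagtctttccgattgctcattaattcactt
ADAMTS13 (chr9:136324399-136324458, plus strand): ctactttagagtcttctccaatgtccaaaa
TIMP2 (chr17:76849063-76849122, minus strand): tgctttgtatcattcttgagcaatcgctcg
MMP3 and MMP10 encode the closely related stromelysins 1 and 2, but their probes were not alike. At the best ungapped offset the MMP3 probe had 21 bases in common with the MMP10 probe, and none of the 103 member probes compared had more than 26. None of the other probes on the array, 34127 in all with its own and searched on both strands, shared a run of 15 bases with it. The part of the transcript in which each probe lies was not analysed here.

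A smaller share of these genes than of all genes was measured. A probe was called measured when Agilent's software put at least one population well above background on the first and on the second array, and a gene with several measured probes was represented by the brightest. By this rule 22 of 74 genes were measured (29.7%), against 13718 of 27267 gene names on the array (50.3%). The measured genes were 8 of 23 MMPs, 6 of 23 ADAMs, 4 of 19 ADAMTS proteases, 2 of 5 ADAMTS-like proteins and 2 of 4 TIMPs. Of the 52 genes not measured, 37 were not well above background in any population on any array. Of the other 15, 7 were on 1 array, and 8 were on both arrays but with no population passing on both. The median of the negative control spots was 45.1 for ALDH+ cells and 43.1 for ALDH- cells in Cy5, but 127.2 for ALDH+ cells and 135.2 for ALDH- cells in Cy3, with a local background of 36 to 39.5 in all 4 channels. Spots called well above background were also more frequent in Cy5, at 25999 and 27979, than in Cy3, at 21697 and 21825. No gene probe spot was flagged as saturated.

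The cells had epithelial markers. All 5 epithelial markers (EPCAM, KRT8, KRT18, KRT19 and CDH1) were measured, as were PAX8 and NAPSA, from the list used for clear cell tumors of the ovary. Whether any of these markers tells RMG1 from AMOC2 was not tested. None of 6 fibroblast markers was measured, and 1 of 3 endothelial markers and 2 of 5 leukocyte markers with a probe were (CDH5, PTPRC and CD14), with mean log2 ratios of 0.19, 0.03 and 0.45. PAX8 had a mean log2 ratio of -0.74. The part of these differences in the results was not tested.

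Ratios are given as log2 of ALDH+ over ALDH- cells, after background correction and loess normalization, for the first array and then for the second. In such a bulk sample, a difference in the number of cells that express a gene and a difference in RNA per cell cannot be told apart. Across the 22 measured members the median log2 ratio was -0.07, against -0.003 for all 13718 measured genes. It was 0.07 for the MMPs, -0.12 for the ADAMs, -0.57 for the ADAMTS proteases, -0.01 for the ADAMTS-like proteins and -0.15 for the TIMPs. Of the 22 genes, 5 had a positive ratio on both arrays, 10 had a negative ratio on both, and 7 had opposite signs. Of all measured genes 33.6% were positive on both arrays, 36.2% were negative on both and 30.2% had opposite signs, against 22.7%, 45.5% and 31.8% of the members. The SD between the arrays had a median of 0.14 over the members and 0.11 over all genes, and the mean ratio exceeded that SD in 13 of 22 members (59.1%), against 60.8% of all genes.

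The study's threshold was 2-fold. MMP10 was the single member more than 2-fold higher in ALDH+ cells, a direction and size reached by 0.211% of all measured genes. No member was more than 2-fold lower, against 0.707% of all measured genes. At 1.5-fold, MMP10 was again the one higher member (background 1.5%), and ADAMTS9, ADAMTS13 and TIMP2 were lower (background 4.61%). The 3 lower genes were 13.6% of the measured members. TIMP2 did not pass 1.5-fold with median centering in place of loess (-0.23), nor when both populations were compared in the same dye (-0.33).

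**Figure D1:**
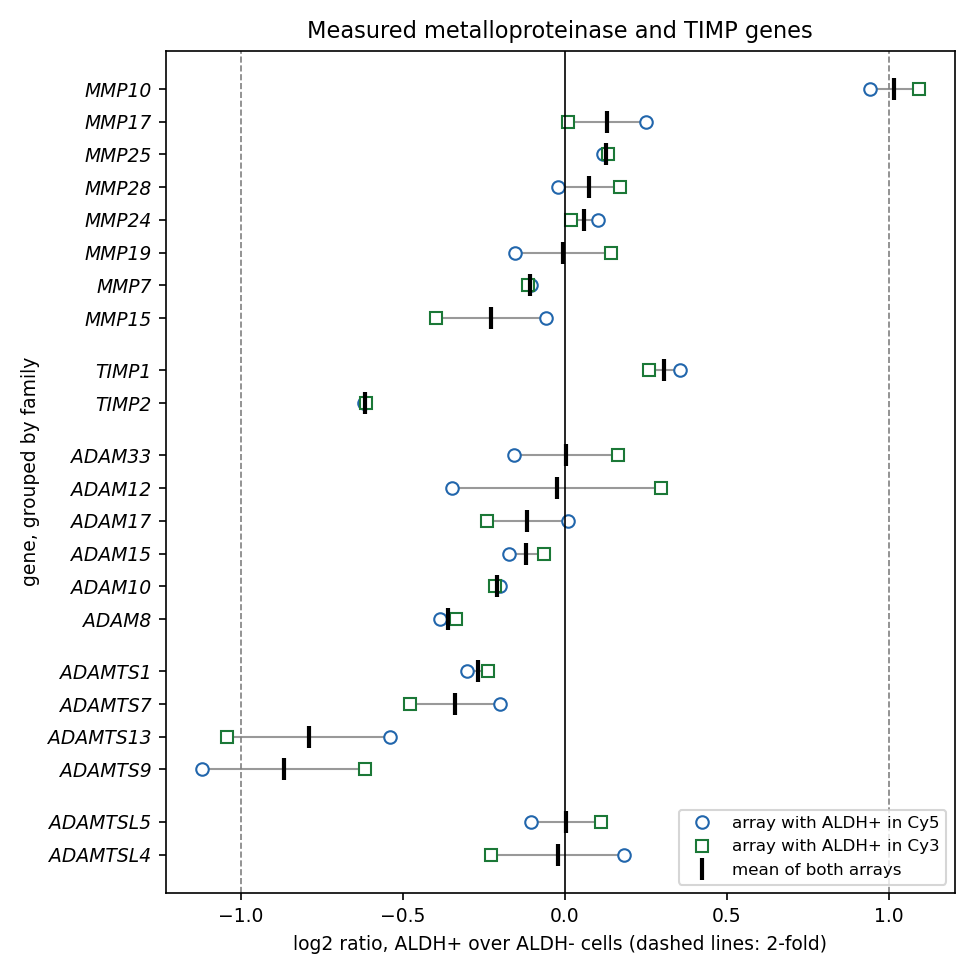
Log2 ratio of ALDH+ over ALDH- cells for the 22 measured genes, grouped by family. Circles show the array with ALDH+ cells in Cy5, squares the array with ALDH+ cells in Cy3, and bars their mean. MMP10 stands at 1.02 and the next highest gene, TIMP1, at 0.31, while all 4 ADAMTS genes lie below 0 on both arrays with loess, of which ADAMTS7 lies at 0.17 with median centering.

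MMP10, or stromelysin 2, cuts proteoglycans, laminin and fibronectin and activates other MMP precursors. The study selected it from these arrays, so its ratio is a description and not independent evidence. Its probe had a mean signal of 248.6 for ALDH+ cells in Cy5 and 73.7 for ALDH- cells in Cy5. In Cy3 ALDH+ cells had a signal of 224.1 and ALDH- cells one of 165.8. ALDH+ cells were thus brighter in either dye, while the ALDH- signals lay not far above the 95th percentile of the negative controls, 50.6 in Cy5 and 154.7 in Cy3. By the software's call, ALDH+ cells were well above background for this probe on each array, and ALDH- cells on the second array but not on the first, where they were in Cy3. Ratios against that Cy3 signal therefore rest on a channel not well above background. The log2 ratios were 0.94 and 1.09, a mean of 1.02 with an SD of 0.11, which is 2.03-fold. The mean passed 2-fold by less than that SD, and 1 array alone did not pass it.

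Because the empty signal differed so much between the dyes, both populations were also compared within each dye, across the arrays. For this the median negative control signal of the channel was subtracted and the ratios were centered on all measured probes, a comparison chosen after seeing the data. Such a ratio sets a spot on 1 array against a spot on the other, so differences between spots and arrays enter it. The values in the dyes could lie far apart, as for MMP19 at 0.84 in Cy5 and -0.84 in Cy3. In Cy5 the net signal of MMP10 was 203.5 in ALDH+ cells and 30.6 in ALDH- cells, a centered log2 ratio of 2.58. In Cy3 it was 96.9 and 30.6, a centered log2 ratio of 1.63. The ALDH- value in Cy3 is the one not well above background. Both dyes gave ALDH+ cells the higher value, and both gave a larger ratio than the normalized one. The software's own ratio for MMP10 was larger again, with a mean of 2.66 over both arrays. The lowest value under any of the alternatives was 0.83, without background correction. The direction of MMP10 was the same in every setting that gave it a value, whereas its size was not fixed by these data. MMP10 counted as measured through ALDH+ cells, and a filter asking both populations to be well above background left it out. All settings reprocess the same arrays and are not independent evidence.

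MMP10 lies in a cluster of MMP genes on chromosome 11. Within 1 Mb of its probe on either side, 19 other genes had a probe, of which 8 were MMPs. Of these neighbors 6 were measured, and MMP7 was the one measured MMP among them. YAP1, a transcriptional coactivator of the Hippo pathway, had log2 ratios of -0.31 and -0.37. BIRC3 and BIRC2, inhibitors of apoptosis, had ratios of 0.17 and -0.02 and of -0.20 and 0.07, so that both changed sign between the arrays. TMEM123 had ratios of 0.26 and 0.22, and DCUN1D5 had -0.10 and 0.02. None of the 6 passed 1.5-fold in either direction. Their median was -0.05, and MMP10 exceeded it by 1.07 on the log2 scale. None of these 6 genes reached the ratio of MMP10. The nearest of them was MMP7 at -247 kb, and all closer genes were not measured. Among those, MMP1 at 19.3 kb had signals of 93.2 for ALDH+ and 66.6 for ALDH- cells in Cy5, and of 161.4 and 165.7 in Cy3. The median of the negative controls in Cy3 was 127.2 for ALDH+ and 135.2 for ALDH- cells. The order of the raw Cy3 signals therefore gives no direction for MMP1.

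**Figure D2:**
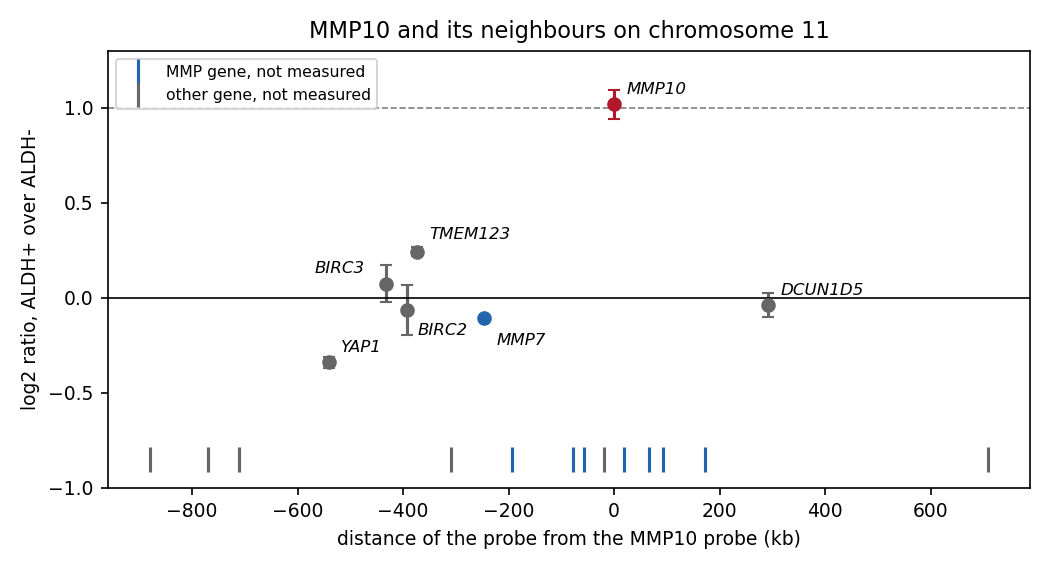
Mean log2 ratio of ALDH+ over ALDH- cells against the distance of each probe from the MMP10 probe in kb, for MMP10 and 6 measured neighbors on chromosome 11. Whiskers span the 2 arrays, the dashed line marks 2-fold, and the ticks at the bottom mark 13 genes that were not measured and carry no value. MMP10 stands at 1.02 and the neighbors lie between -0.34 and 0.24.

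MMP7, or matrilysin, is a small secreted MMP of glandular epithelium whose probe lies at -247 kb from that of MMP10. It was bright in every channel, with signals of 43210 for ALDH+ cells and 34824 for ALDH- cells in Cy5, and of 18460 and 15495 in Cy3. After loess its log2 ratios were -0.10 and -0.11, a mean of -0.11. The sign was not fixed: with median centering in place of loess the mean was 0.29, and within each dye it was 0.16 in Cy5 and 0.22 in Cy3. The direction of MMP7 therefore depended on the normalization of bright probes, while MMP10 stayed above it in every setting that gave MMP10 a value.

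The other members of the cluster were dim. MMP3, or stromelysin 1, at 65.3 kb, had signals of 43.9 for ALDH+ and 41.8 for ALDH- cells in Cy5, and of 136.8 and 145.5 in Cy3. Those are the levels of the negative controls. MMP1, the interstitial collagenase at 19.3 kb, had 10 spots per array with mean signals of 93.2 for ALDH+ and 66.6 for ALDH- cells in Cy5, and of 161.4 and 165.7 in Cy3. In Cy5, 9 of 10 MMP1 spots passed the well-above-background call in ALDH+ cells and 7 of 10 in ALDH- cells, but in Cy3 only 1 spot did in each. Over 9 unflagged spots its log2 ratio was 0.00 ± 0.27 (SD over spots) on the first array and 0.26 ± 0.17 on the second. MMP1 was thus called in Cy5 and mostly not in Cy3, and its spots varied by more than the ratio on the first array and by less on the second. MMP8 (neutrophil collagenase), MMP12 (macrophage elastase), MMP13 (collagenase 3), MMP20 (enamelysin) and MMP27 were not well above background in any channel, nor was MMP26 (matrilysin 2), which lies elsewhere on the chromosome. In all, 8 of 10 MMP genes on chromosome 11 were not measured, and 7 of these were not above background on any array. For MMP3 and these 6 genes a difference between the populations was not detectable at this signal.

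**Figure D3:**
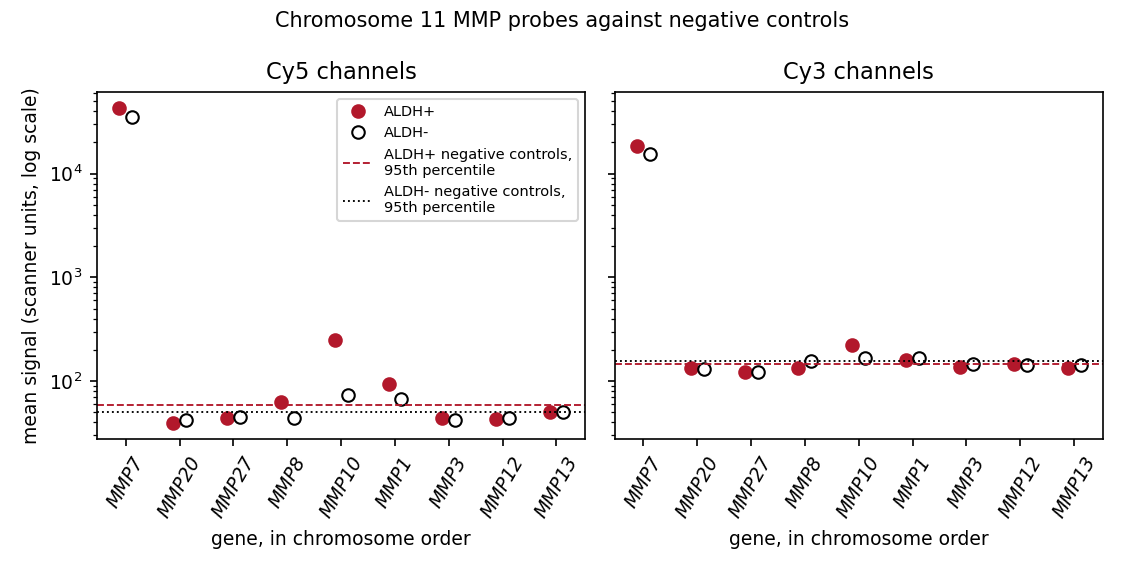
Mean signal in scanner units, on a log scale, of the 9 MMP probes of the chromosome 11 cluster in chromosome order, with the Cy5 channels on the left and the Cy3 channels on the right. Filled points are ALDH+ cells, open points ALDH- cells, and the lines mark the 95th percentile of 153 negative control spots. MMP7 is far above the controls in all channels, MMP10 is clearest in ALDH+ cells at 248.6 in Cy5 and 224.1 in Cy3, and most of the others lie at or near the control level.

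Both measured genes of the cluster have a similar promoter layout. RefSeq windows from 250 bases before to 50 bases after the start of the gene (GRCh38.p14) matched 44 of 74 members, among them MMP7, MMP8, MMP10, MMP20, MMP26 and MMP27 of chromosome 11 but not MMP1, MMP3, MMP12 or MMP13. They were searched on both strands for the AP-1 motif TGANTCA, a binding sequence for Fos and Jun that is well known in MMP promoters, and for the TATA box TATAAA. The AP-1 motif was in 4 of these 44 members (ADAMTS12, MMP7, MMP10 and MMP20) and in 7.764% of all 27305 promoters. The letters TATAAA were in 9 members and in 11.95% of all promoters, counted at any place in the window. In ADAM21 they began 39 bases after the start. MMP7, MMP10 and MMP20 held both, as did 1.351% of all promoters. In MMP20 the AP-1 motif began 112 bases and the TATAAA letters 72 bases before the start. The 100 bases before the start are shown for MMP10 and MMP7, with both motifs in capitals.
MMP10 (chr11:102780629-102780728, minus strand): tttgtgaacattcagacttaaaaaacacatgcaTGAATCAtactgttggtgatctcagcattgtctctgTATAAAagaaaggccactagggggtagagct
MMP7 (chr11:102530748-102530847, minus strand): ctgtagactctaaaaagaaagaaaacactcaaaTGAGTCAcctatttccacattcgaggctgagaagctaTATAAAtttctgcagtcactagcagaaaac
In both genes the AP-1 motif began 67 bases before the start, and the TATA box began 31 bases before it in MMP10 and 30 bases in MMP7. The log2 ratios of these genes in ALDH+ cells were 1.02 and -0.11. A match to these letters is a description of sequence, and binding was not measured.

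Neither gelatinase was measured by the rule used here. MMP9, gelatinase B, cuts basement membrane collagen and had 10 spots per array, with mean signals of 107.7 for ALDH+ and 111.4 for ALDH- cells in Cy5. All 10 of its spots were well above background in Cy5 in either population, against 1 or 2 spots in Cy3. Its log2 ratio over unflagged spots was 0.10 ± 0.20 on the first array and -0.21 ± 0.12 on the second, so the arrays gave opposite signs. For MMP2, gelatinase A, the single spot was brighter in both dyes on the second array than on the first. In Cy5 the signal was 53.4 for ALDH+ cells on the first array and 134.8 for ALDH- cells on the second. In Cy3 it was 157.5 for ALDH- cells on the first array and 180.2 for ALDH+ cells on the second. The log2 ratios of MMP2 were -0.20 and 0.04. MMP2 was well above background in both populations on the second array and in neither on the first.

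Membrane-type MMPs act at the cell surface, and 4 of 6 were measured. MMP14, the best known activator of MMP2, was well above background on Cy5 alone, with signals of 81.3 for ALDH+ and 74.7 for ALDH- cells. MMP15 had signals of 471.2 and 469.8 in Cy5 and of 290.0 and 358.0 in Cy3 for ALDH+ and ALDH- cells. Its log2 ratios were -0.06 and -0.40, a mean of -0.23 with an SD of 0.24. MMP24, another transmembrane type, was bright, at 13643 and 10580 in Cy5 and 6215 and 5023 in Cy3, with ratios of 0.10 and 0.02. Like that of MMP7, its mean depended on the normalization, from 0.06 with loess to 0.35 with median centering and 0.25 in the comparison within one dye. MMP17 and MMP25 are held in the membrane by a lipid anchor. MMP17 had ratios of 0.25 and 0.01 and MMP25 had ratios of 0.12 and 0.13, but within one dye across the arrays MMP25 had -0.17 in Cy5 and 0.14 in Cy3. MMP16 was not well above background in any channel. None of these 4 measured genes differed by 1.5-fold between the populations.

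MMP19 and MMP28 are secreted MMPs outside the classical groups, MMP28 being the epilysin of keratinocytes. Their log2 ratios had opposite signs on the arrays, at -0.15 and 0.14 for MMP19 and at -0.02 and 0.17 for MMP28. Within each dye across the arrays, MMP19 had 0.84 in Cy5 and -0.84 in Cy3, and MMP28 had 0.33 and -0.31. MMP11 and MMP23B were well above background in Cy5 only, in 1 population and in both respectively, and MMP21 in no channel. Without MMP10, the 7 measured MMPs ranged from -0.23 to 0.13 with a median of 0.06.

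The inhibitors went in opposite directions. TIMP1, a soluble inhibitor of most secreted MMPs, had signals of 3663 for ALDH+ and 2445 for ALDH- cells in Cy5, and of 1731 and 1382 in Cy3. Its log2 ratios were 0.35 and 0.26, a mean of 0.31 with an SD of 0.07, and it was the second highest of all 22 members. It was 0.47 with median centering and 0.38 in the comparison within one dye. TIMP2 inhibits MMPs and also takes part, with MMP14, in the activation of MMP2. It had signals of 34015 for ALDH+ and 39052 for ALDH- cells in Cy5, and of 14652 and 17597 in Cy3. Its log2 ratios were -0.62 and -0.61, a mean of -0.62 with an SD of 0.01. ALDH+ cells were dimmer for TIMP2 and brighter for TIMP1 in either dye. The size for TIMP2 rested on loess, since median centering gave -0.23 and the comparison within each dye gave -0.35 in Cy5 and -0.30 in Cy3. TIMP3, which binds the matrix and inhibits ADAM17 and several ADAMTS proteases, and TIMP4 were not well above background in any channel.

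The ADAMTS proteases were lower in ALDH+ cells for all 4 measured genes on both arrays, although ADAMTS7 turned positive with median centering and in the same-dye comparison. Of all measured genes, 36.2% were negative on both arrays. ADAMTS9 cuts the proteoglycans versican and aggrecan. Its signals were 401.6 for ALDH+ and 730.4 for ALDH- cells in Cy5, and 353.5 and 577.2 in Cy3. Its log2 ratios were -1.12 and -0.62, a mean of -0.87 with an SD of 0.36, which is 0.548-fold. ADAMTS13 cleaves von Willebrand factor and is made chiefly in the liver. Its signals were 194.8 for ALDH+ and 337.6 for ALDH- cells in Cy5, and 175.9 and 277.8 in Cy3. Its log2 ratios were -0.54 and -1.04, a mean of -0.79 with an SD of 0.36. Each of the 2 genes passed 2-fold on 1 array and not on the other, and ALDH+ cells were the dimmer population in both dyes.

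Compared within one dye, both genes were past 2-fold in Cy5 and in Cy3. Net of negative controls, ADAMTS9 had 356.5 in ALDH+ and 687.3 in ALDH- cells in Cy5 and 226.3 and 442.1 in Cy3, with centered log2 ratios of -1.10 and -1.003. ADAMTS13 had 149.7 and 294.4 in Cy5 and 48.7 and 142.6 in Cy3, with ratios of -1.13 and -1.59. The software's ratio put both past 2-fold as well, at -1.06 for ADAMTS9 and -1.37 for ADAMTS13. In both of these settings the members past 2-fold were MMP10, ADAMTS9 and ADAMTS13. More of all measured genes passed as well: 0.999% were higher and 2.01% lower by the software's ratio, and 0.838% were higher and 1.65% lower in the comparison within one dye.

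ADAMTS1, which cuts versican and aggrecan, had log2 ratios of -0.30 and -0.24 at signals of 1251 for ALDH+ and 1343 for ALDH- cells in Cy5. ADAMTS7, which cleaves cartilage oligomeric matrix protein, was the brightest probe among the members, at 136416 and 127155 in Cy5, with ratios of -0.20 and -0.48. Its direction was uncertain. A dimmer measured probe of ADAMTS7 had a mean of 0.05, and median centering turned the bright probe to 0.17. Whether these probes also match pseudogene copies of ADAMTS7 was not analysed. The 15 ADAMTS genes not measured included the aggrecanases ADAMTS4 and ADAMTS5, and of these 15, 12 were not well above background on any array. The ADAMTS-like proteins share matrix-binding domains with this family but have no protease. ADAMTSL4 and ADAMTSL5 had opposite signs on the arrays and means of -0.02 and 0.00.

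Among the ADAMs, ADAM10 and ADAM17, the main sheddases of Notch receptors, growth factor precursors and tumor necrosis factor, were both measured. ADAM10 had signals of 979.0 for ALDH+ and 1019 for ALDH- cells in Cy5, and of 577.6 and 646.9 in Cy3, with log2 ratios of -0.20 and -0.22. Another measured ADAM10 probe had opposite signs on the arrays, at 0.20 and -0.48. ADAM17 had 511.1 and 534.1 in Cy5 and 347.1 and 358.3 in Cy3, with ratios of 0.01 and -0.24. Neither sheddase differed by 1.5-fold between the populations.

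ADAM8, a protease best known from leukocytes and osteoclasts, was the lowest ADAM. Its signals were 449.0 for ALDH+ and 475.7 for ALDH- cells in Cy5, and 307.4 and 411.6 in Cy3. Its log2 ratios were -0.39 and -0.34, and it stayed below 0 under every alternative. ADAM15, which carries an integrin-binding disintegrin domain, was bright, and its measured probes differed in sign, with means of -0.12 and 0.32. This was the widest gap, 0.44, among 7 members with several measured probes. Among the probes that represent the ADAM genes, that of ADAM12 had the widest gap between the arrays, at -0.35 and 0.30, and ADAM33 also changed sign, at -0.16 and 0.16. After loess none of the 6 representing probes had a positive ratio on both arrays. ADAM15 was the exception by other choices, since its dimmer probe had ratios of 0.47 and 0.17 and its bright probe a mean of 0.22 with median centering. The 17 ADAM genes not measured included ADAM9 and ADAM19, each well above background on 1 array, and ADAM28, which was in Cy5 on both.

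**Figure D4:**
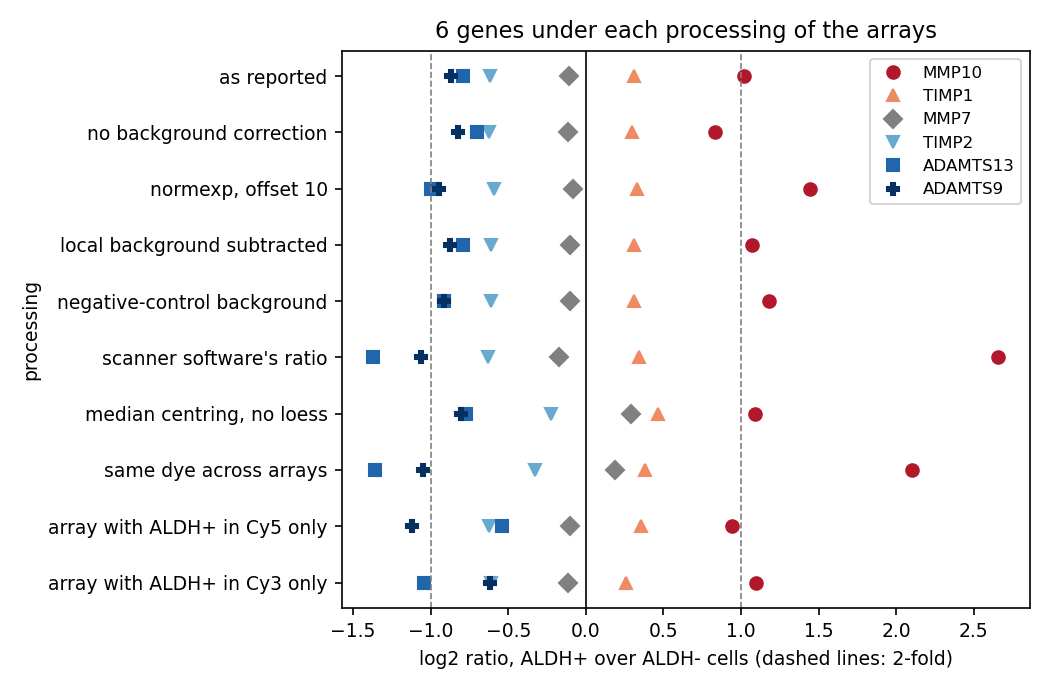
Log2 ratio of ALDH+ over ALDH- cells for 6 genes under 10 ways of processing the arrays, with dashed lines at 2-fold. MMP10 spans 0.83 to 2.66 and stays on the positive side, ADAMTS9 and ADAMTS13 stay negative, and MMP7 crosses 0 under median centering and in the comparison within one dye.

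Regulators of these proteases were examined from a list. Of 21 genes listed for their activation, inhibition or trafficking, 14 were measured and none passed 1.5-fold in either direction, with a median log2 ratio of 0.03. The background at 1.5-fold, 1.5% higher and 4.61% lower, is close to none among so few genes. BSG, a surface glycoprotein that induces MMPs in neighboring cells, was highest at 0.30. TSPAN5, a tetraspanin that carries ADAM10 to the surface, was lowest at -0.56, and FRMD8, which stabilizes the iRhom partners of ADAM17, was at -0.54, and both passed 1.5-fold on the second array, at -0.69 and -0.68. RECK, a membrane-anchored MMP inhibitor, was not measured. The plasminogen activator PLAU was at 0.07 and SERPINE2, an inhibitor of plasminogen activators, was at -0.44.

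A further list held proteins that ADAMs or MMPs release from the surface. Of 20 such genes 16 were measured, with a median log2 ratio of 0.10, and 1 was more than 2-fold higher (background 0.211%). It was TNF, the cytokine released by ADAM17, with ratios of 1.12 and 1.26. The adhesion molecule L1CAM, with ratios of 0.96 and 0.71, was past 1.5-fold on the mean of 0.83, so that 2 of 16 were higher by that measure (background 1.5%) and none was lower (background 4.61%). IL6R, at -0.58, fell just short of 1.5-fold lower, and NOTCH2 was at -0.46. On the second array both passed 1.5-fold lower, at -0.75 and -0.67. TNF and MMP10 were thus higher in ALDH+ cells with the main processing, and TNF is not given under the other settings. ADAM17 and ADAM10 had means of -0.12 and -0.21. On the first array, however, ADAM17 had 0.01 and another ADAM10 probe had 0.20. A relation between these genes was not tested.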

How the data were processed

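ALDH+ and ALDH- RMG1 cells were compared on 2 two-color Agilent arrays with the dyes exchanged. Both arrays carried the same extracts and were counted as 1 replicate. The authors deposited, for each array, spot intensities and local backgrounds without normalization. They also deposited a log10 ratio, which Agilent's software computed from signals it had background-subtracted and dye-normalized (Feature Extraction 10.7.3.1 per the file headers, 8.5.1.1 per the submitters' processing notes). A joined table that the authors deposited holds the same log10 ratios, which differed from the software's by at most 1.66e-09 on the log2 scale, and 4 columns that were not used. The methods name no normalization. The paper gives its 2-fold threshold in the results, along with low or absent expression in normal organs as a further criterion.

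Mean signals were corrected with normexp (offset 50) on the median local background and normalized by loess within each array, with control spots at weight 0, in R 4.3.3 with limma 3.58.1. Outlier spots (531 and 519) were left out of the ratios within an array. Mean signals, calls above background and the same-dye comparison kept them. Spots of a probe were averaged, ratios were turned to ALDH+ over ALDH- cells, and the arrays were averaged. The offset draws ratios of dim probes toward 0. Probes with several spots needed more than 50% of them well above background. Later steps used Python 3.11.15, numpy 2.4.6 and pandas 2.3.3, and steps were tested on simulated data. The test required the set ratios to be recovered for bright probes only, so it does not cover probes as dim as that of MMP10. Genes were named through RefSeq transcripts (GRCh38.p14 table), which matched all 104 member probes and 25419 of 34127 probes in all. Each measured member was well above background in both populations on at least 1 array, so no ratio was given as a bound, but ALDH- cells were not on the first array for MMP10.

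All measured MMPs and TIMPs, all MMPs of chromosome 11, and the 5 highest and the 5 lowest ADAM-type genes of like sign on both arrays were to be named with values; no ADAM-type gene was positive on both. Values of further ADAM-type genes were added after they were seen. The members and gene lists were chosen with earlier results of these data known. With 1 sample of each population and 2 arrays, differences between sorts cannot be estimated, and the number of arrays limits the precision. One further marker gene is not reported here.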

Additional observations from a re-analysis of the deposited data

How the results depend on the processing

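Each ratio within an array pairs both populations, but with 1 sample of each population no test was run. The log2 ratio of MMP10 moved beyond the arrays' SD to 0.83 without background correction, 1.45 at offset 10, 1.18 with the negative control spots as background, 2.66 with the software's ratio or the joined table, and 2.10 with the same dye compared across the arrays (chosen after seeing the data). Its excess over the median of its chromosome 11 neighbors was 0.90, 1.49, 1.25, 2.69 and 2.08 in these settings, 1.12 with plain subtraction, 0.97 with median centering and 0.96 with no filter on dim probes. No member was more than 2-fold higher without background correction, on the first array alone (ALDH+ cells in Cy5), among probes well above background in both populations, or with 2-fold asked of each array (0 in each). The filter on both populations left MMP10 out, so MMP10 had no value there. More than 2-fold lower were 2 members (ADAMTS9 and ADAMTS13) with the software's ratio, the joined table and the same-dye comparison, and 1 on either array alone (ADAMTS9 on the first, ADAMTS13 on the second). At 1.5-fold 3 members were lower, of which TIMP2 did not pass with median centering or in the same-dye comparison.

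The median of the MMPs was 0.0281 without background correction, 0.0393 with negative control background, 0.0940 with the software's ratio and the joined table, 0.169 with median centering, 0.0402 on the first array and 0.0277 with no filter. The median of the ADAMs was -0.0447 with median centering, -0.187 on the first array, -0.0158 with no filter and -0.0699 over all measured probes. The median of the ADAMTS with the ADAMTS-like genes was -0.30, and -0.10 with median centering, -0.21 in the same-dye comparison, -0.0286 with no filter and -0.18 over all measured probes. The median of the TIMPs turned to 0.12 with median centering and 0.0275 in the same-dye comparison, and was -0.00984 with no filter. Median centering moved the median of all genes to 0.07. The causes of these shifts were not tested. Leaving out single arrays, which cannot move beyond that SD, and the joined table, 168 values of the other 21 members under 8 alternatives were compared, of which 38 moved beyond the SD and 15 had the other sign. With single arrays included, 10 members kept their sign throughout: TIMP1, MMP17, MMP24, MMP15, ADAM10, ADAMTS1, ADAM8, TIMP2, ADAMTS13 and ADAMTS9. For probes near the negative controls, signal over background limits any statement.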
